A study of Mus musculus with 32 samples.

Results

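The steady-state levels of genes of nitric oxide and endothelin signalling were followed in the lungs of newborn mice. Out of 35715 distinct gene names in the array annotation 10 were taken by name, and 8 of these are described: Nos1, Nos2, Nos3, Gucy1a3, Gucy1b3, Pde5a, Edn1 and Ednra. These 8, called members in what follows, had 10 probes of 60 bases. Nos3 and Pde5a had 2 probes each and the other genes had 1. Gucy1a3 and Gucy1b3 are older symbols of Gucy1a1 and Gucy1b1. A gene with more than 1 probe is described by the brighter probe, and the oxygen changes of the other probe are given beside it.

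Whole-lung RNA of 32 wild-type mouse pups was hybridised to 1-colour Agilent arrays, with 4 pups in each of 8 groups. Pups breathed 21% O2 or 85% O2, the latter being the hyperoxia model of bronchopulmonary dysplasia, and were given either antimiR-34a, an oligonucleotide that blocks the microRNA miR-34a, or a scrambled antimiR. The groups were therefore 21% O2 with scrambled antimiR, 21% O2 with antimiR-34a, 85% O2 with scrambled antimiR and 85% O2 with antimiR-34a, each at post-natal day (P)5 and at P14. Every pup had received an oligonucleotide, so no group shows the untreated lung, and the controls of the antimiR-34a comparisons are pups given the scrambled one. The extraction protocol gives the ages as P5.5 and P14.5, and says that the lungs were flushed through the heart. Per the study's methods the pups were C57Bl/6J of both sexes, and nursing dams changed between the oxygen levels every day. Nothing in the labels says which pups shared a litter, so each array was taken as 1 mouse and p-values measure the spread between these mice.

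Between 33616 and 40788 of 55681 probes were well above background on an array, and all 10 markers of lung tissue were above it on every array. Each slide held the 8 arrays of 1 age at 1 oxygen level, with the scrambled and antimiR-34a pups in separate rows of the slide, so oxygen and age cannot be told apart from the slide, and the antimiR cannot be told apart from the array row. Levels of RNA from other tissues also differed between the oxygen groups, with some overlap at P5. In scrambled pups the summed level of 8 heart muscle markers ranged from 5.71 to 7.89 in 21% O2 and from 4.38 to 5.97 in 85% O2 at P5, and from 6.75 to 7.55 and 5.16 to 6.42 at P14. The summed level of 8 adipocyte markers ranged from 1.83 to 4.71 in 21% O2 and from -3.45 to -3.12 in 85% O2 at P14. Their part in the results was not tested. The library of the scrambled pup 4 in 21% O2 at P5 stood apart by its skeletal muscle genes (summed level of 8 markers 6.58, against 0.88 to 1.62 in the other 3). That of antimiR-34a pup 3 in 85% O2 at P5 stood apart by its liver genes (8 markers, 5.18 against -1.04 to 0.30), and that of antimiR-34a pup 4 in 85% O2 at P14 by its adipocyte genes (1.45 against -3.16 to -2.81). In 21% O2 at P14, 2 libraries stood closer to the pups of the other oligonucleotide than to their own group in array brightness and neuron markers. Scrambled pup 4 had a 75th percentile of 9.34 (10.12 to 10.18 in the other 3) and a summed level of 8 neuron markers of 6.72 (5.03 to 5.44), and antimiR-34a pup 1 had 10.20 (9.56 to 9.64 in the other 3) and 5.35 (6.69 to 6.89). Whether their labels are exchanged was not tested, and leaving out both moved member changes by up to 0.08 and altered 1 of 56 calls, that of Ednra given further on. Called changes of a member's brighter or single probe that rest on either of the P5 libraries are given with and without them. Throughout, a level is the log2 signal after subtraction of the 75th percentile of log2 signals on that array, a mean is given with its SD (n = 4 pups), and a change is a difference of such levels with its standard error (SE). Adjusted p-values come from limma, with the Benjamini-Hochberg correction over all tested probes, and a gene was called at an adjusted p below 0.05. Levels of different genes cannot be compared on this scale, since probes differ in brightness.

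Nitric oxide is made from arginine by 3 synthases: the neuronal one (Nos1), the inducible one (Nos2) and the endothelial one (Nos3). In smooth muscle it binds soluble guanylate cyclase, a dimer of an alpha subunit (Gucy1a3) and a beta subunit (Gucy1b3), which makes the messenger cGMP and relaxes the vessel, and the phosphodiesterase Pde5a breaks the cGMP down again. Endothelin-1, made from the precursor that Edn1 encodes, contracts smooth muscle through its receptor type A, Ednra. Pulmonary vessels of the newborn lung use these opposing signals, and inhaled nitric oxide and inhibitors of Pde5a or of endothelin receptors are used to treat pulmonary hypertension.

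The microRNA that the antimiR blocks is shown because all antimiR comparisons turn on it. Its mature form lies at chr4:150068473-150068494 of GRCm38.p6, plus strand, and the capitals mark the seed, bases 2 to 8, which pairs with targets.
mmu-miR-34a-5p: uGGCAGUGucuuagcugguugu
The letters CACTGCC, the match of this seed, were found on neither strand in any of the 10 probes, which says nothing about the rest of the transcripts.

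Hyperoxia was accompanied by lower levels of the guanylate cyclase subunits and of Pde5a at both ages and with either oligonucleotide. In scrambled pups, 3 of the 7 tested members were called at P5, all 3 lower in 85% O2, against 43.9% of all tested probes. At P14, 4 of 7 were called, 3 lower and 1 higher, against 60.9% of all probes. In antimiR-34a pups the same comparison called 5 of 7 at P5 (46.6% of all probes), 4 lower and 1 higher, and 4 of 7 at P14 (65.5%), 3 lower and 1 higher. With so few members, these shares are not read as differing from those of all probes, and what follows describes the size and direction of single genes. The median change of the 7 members was -0.04 at P5 in scrambled pups (-0.07 over all tested probes), -0.17 at P5 in antimiR-34a pups (-0.09) and 0.30 at P14 in antimiR-34a pups (-0.12). At P14 in scrambled pups it was -0.54 (-0.07 over all probes) and turned to 0.19 without 1 dark spot of Nos2, described further on. With that spot left out, 5 of 7 members were called at P14 with either oligonucleotide. Nos1 was not tested, because its probe was well above background on 1 of 32 arrays.

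**Figure D1:**
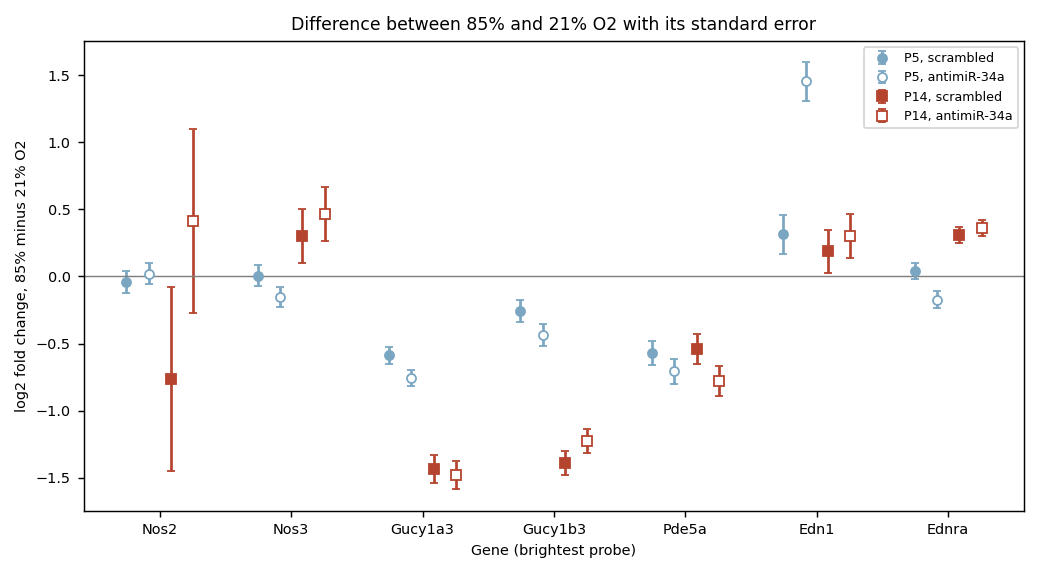
The difference in log2 level between 85% and 21% O2 (y axis) is plotted for each tested member (x axis) with its standard error, for scrambled (filled) and antimiR-34a pups (open) at P5 (circles) and P14 (squares). Gucy1a3, Gucy1b3 and Pde5a lie below 0 in all 4 comparisons, and the highest point is that of Edn1 in antimiR-34a pups at P5, at 1.45.

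The alpha subunit of soluble guanylate cyclase was lower in 85% O2 at each age. Gucy1a3 (probe at chr3:81896409-81896468 of mm9, minus strand) had levels of 4.65, 4.82, 4.82 and 4.63 in scrambled pups in 21% O2 at P5, and of 4.11, 4.16, 4.2 and 4.10 in 85% O2. The groups did not overlap, and the change was -0.59 (SE 0.06, adjusted p = 6.49e-06), a level 1.50-fold lower. At P14 the levels were 5.23, 5.31, 5.23 and 5.26 in 21% O2 and 3.83, 3.83, 3.96 and 3.67 in 85% O2. All 4 pups in 85% O2 lay more than 1 log2 unit below all 4 in 21% O2, and the change was -1.43 (SE 0.11, adjusted p = 1.33e-07), a level 2.70-fold lower. In antimiR-34a pups the changes were -0.76 (SE 0.06, adjusted p = 5.36e-07) at P5 and -1.48 (SE 0.11, adjusted p = 9.37e-08) at P14. The P5 changes were -0.62 (adjusted p = 1.27e-05) without scrambled pup 4 in 21% O2 and -0.78 (adjusted p = 1.27e-06) without antimiR-34a pup 3 in 85% O2.

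The beta subunit followed the same order. Gucy1b3 (chr3:81836142-81836201, minus strand) had levels of 3.36, 3.52, 3.64 and 3.32 in scrambled pups in 21% O2 at P5, and of 3.20, 3.27, 3.13 and 3.21 in 85% O2. The groups did not overlap but came close, and the change was -0.26 (SE 0.08, adjusted p = 0.0187). This call was lost by the methods' t-test (adjusted p = 0.0886) and without the scrambled pup 2 (adjusted p = 0.0501) or 3 in 21% O2 (0.0631) or pup 3 in 85% O2 (0.0542). At P14 the levels were 4.02, 3.92, 3.97 and 3.87 in 21% O2 and 2.70, 2.49, 2.61 and 2.41 in 85% O2. Here the groups were far apart, and the change was -1.39 (SE 0.09, adjusted p = 3.51e-08), a level 2.62-fold lower. In antimiR-34a pups Gucy1b3 changed by -0.44 (SE 0.08, adjusted p = 0.000546) at P5 and by -1.23 (SE 0.09, adjusted p = 1.04e-07) at P14. The P5 changes were -0.30 (adjusted p = 0.0107) without scrambled pup 4 in 21% O2 and -0.44 (adjusted p = 0.00114) without antimiR-34a pup 3 in 85% O2.

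The 2 subunit genes lie next to each other on chromosome 3 in the RefSeq annotation of GRCm38.p6. Over the 32 arrays their levels correlated with a Pearson's r of 0.96, and with 0.71 once the mean of each group had been taken out. These are descriptions over arrays that share slides, with no test. By level, Gucy1a3 ran from 5.26 ± 0.04 and 5.22 ± 0.08 (scrambled and antimiR-34a, 21% O2, P14) through 4.87 ± 0.08 and 4.73 ± 0.11 (antimiR-34a and scrambled, 21% O2, P5) and 4.14 ± 0.05 and 4.12 ± 0.06 (scrambled and antimiR-34a, 85% O2, P5) to 3.82 ± 0.12 and 3.74 ± 0.26 (scrambled and antimiR-34a, 85% O2, P14). Within each of these 4 pairs, which differ in the antimiR, the groups overlapped and no difference was called.

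The direction of change with age was opposite at the 2 oxygen levels. In scrambled pups in 21% O2, Gucy1a3 rose between P5 and P14 by 0.53 (SE 0.09, adjusted p = 1.50e-05) and Gucy1b3 by 0.48 (SE 0.08, adjusted p = 2.97e-05). In 85% O2, Gucy1a3 fell by 0.32 (SE 0.09, adjusted p = 0.00369) and Gucy1b3 by 0.65 (SE 0.08, adjusted p = 8.16e-07). The oxygen effect at P14 minus that at P5 was -0.85 (SE 0.12, adjusted p = 7.09e-06) for Gucy1a3 and -1.13 (SE 0.12, adjusted p = 9.42e-08) for Gucy1b3, in a comparison that called 40.8% of all tested probes. Without scrambled pup 4 in 21% O2 at P5, the rises in 21% O2 were 0.49 and 0.44 and the differences of the oxygen effects -0.81 and -1.09, all of them called. The age comparisons called 51.4% of probes in 21% O2 and 42.1% in 85% O2.

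The upstream sequences of Gucy1b1 and Pde5a, which were lower in hyperoxia, and of Edn1, described further on, are shown to give the letters at their starts. Edn1 was called higher in hyperoxia in antimiR-34a pups at P5 only. Each is 250 bases of GRCm38.p6 that end just before the start, on the strand of the gene, and capitals mark matches to the motifs searched on both strands. These were the TATA box in the form TATAAA, the motif CCAAT, the GC box in the form GGGCGG, the core of the hypoxia response element in the form ACGTG, and the AP-1 site in the form TGANTCA. Gucy1b1 lies at chr3:82074712-82074961 (minus strand), Pde5a at chr3:122728908-122729157 (plus) and Edn1 at chr13:42301226-42301475 (plus).
Gucy1b1: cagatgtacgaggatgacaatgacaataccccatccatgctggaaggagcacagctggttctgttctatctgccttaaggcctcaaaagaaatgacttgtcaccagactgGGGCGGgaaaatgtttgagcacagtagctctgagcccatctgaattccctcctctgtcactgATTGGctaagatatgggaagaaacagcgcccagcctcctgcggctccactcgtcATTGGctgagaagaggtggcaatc
Pde5a: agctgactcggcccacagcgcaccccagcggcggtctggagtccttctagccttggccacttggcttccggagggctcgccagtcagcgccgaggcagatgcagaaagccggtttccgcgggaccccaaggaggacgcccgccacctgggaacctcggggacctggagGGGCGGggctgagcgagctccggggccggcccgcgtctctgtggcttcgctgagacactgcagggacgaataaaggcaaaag
Edn1: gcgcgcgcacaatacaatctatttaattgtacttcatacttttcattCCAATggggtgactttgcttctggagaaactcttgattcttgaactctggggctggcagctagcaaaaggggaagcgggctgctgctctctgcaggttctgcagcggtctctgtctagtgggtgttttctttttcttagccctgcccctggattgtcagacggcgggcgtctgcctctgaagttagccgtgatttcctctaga
The Gucy1b1 window holds 1 GC box and 2 matches to the CCAAT motif on the other strand (capitals ATTGG), the Pde5a window 1 GC box and the Edn1 window 1 match to CCAAT. Of 32851 windows of the same length in the RefSeq table, 32.7% hold a GC box and 33.8% a CCAAT match. None of the 3 windows holds a TATA box (12.4% of all windows), a hypoxia response core (16.6%) or an AP-1 site (6.75%), and the windows of Nos1 and Ednra, not printed, hold none of the 5 motifs.

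Pde5a, which breaks down the cGMP that the cyclase makes, was also lower in 85% O2, and its 2 probes differed in how much. The brighter probe (chr3:122558949-122559008 of mm9, plus strand, annotated to the RefSeq transcript) had levels of 1.00, 1.02, 1.11 and 0.79 in scrambled pups in 21% O2 at P5, and of 0.62, 0.36, 0.36 and 0.30 in 85% O2. The groups did not overlap, and the change was -0.57 (SE 0.09, adjusted p = 0.000220). At P14 the levels were 1.16, 1.02, 1.15 and 0.86 in 21% O2 and 0.40, 0.34, 0.63 and 0.65 in 85% O2. The change at P14, -0.54 (SE 0.11, adjusted p = 0.000930), was close to that at P5, and the difference of the 2 oxygen effects was 0.03 (SE 0.15, adjusted p = 0.894). In antimiR-34a pups the brighter probe changed by -0.71 (SE 0.09, adjusted p = 3.12e-05) at P5 and by -0.78 (SE 0.11, adjusted p = 4.23e-05) at P14. The P5 changes were -0.63 (adjusted p = 0.000161) without scrambled pup 4 in 21% O2 and -0.75 (adjusted p = 4.83e-05) without antimiR-34a pup 3 in 85% O2.

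The dimmer Pde5a probe (chr3:122478836-122478895, plus strand, annotated to a cDNA clone) changed by -0.76 (SE 0.13, adjusted p = 0.000400) at P5 and by -1.83 (SE 0.18, adjusted p = 1.73e-06) at P14 in scrambled pups, and by -0.98 (SE 0.13, adjusted p = 4.46e-05) and -1.99 (SE 0.18, adjusted p = 7.74e-07) in antimiR-34a pups. The P5 changes were -0.77 and -0.88, both called, without scrambled pup 4 in 21% O2 and antimiR-34a pup 3 in 85% O2. Its levels in scrambled pups at P14 were -0.39, -0.15, -0.89 and -0.63 in 21% O2 and -2.17, -2.24, -2.32 and -2.65 in 85% O2, with no overlap. For this probe the oxygen effect was larger at P14 than at P5, by -1.07 (SE 0.23, adjusted p = 0.000651), which the brighter probe did not show. Which transcripts each probe reads was not analysed here.

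**Figure D2:**
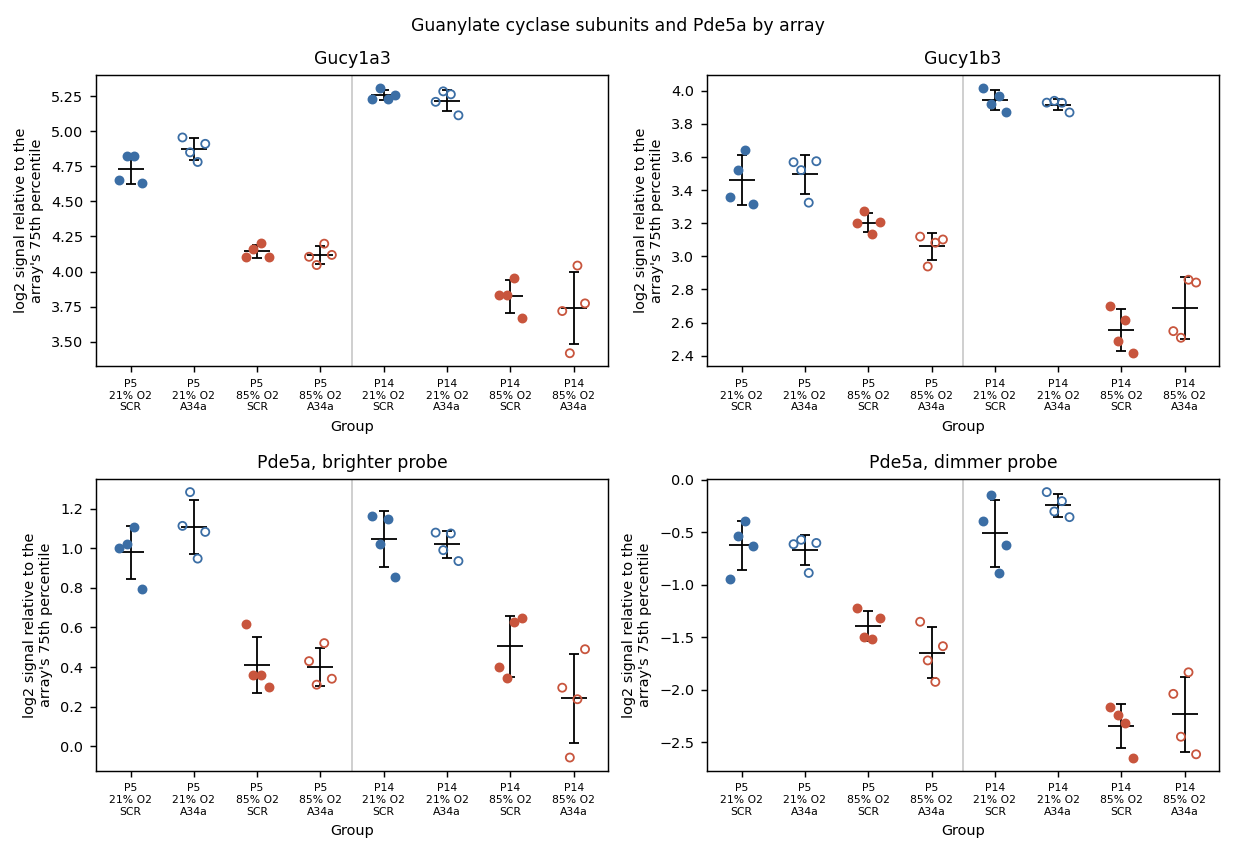
The log2 level of each array (y axis, scaled by the 75th percentile) is plotted for Gucy1a3, Gucy1b3 and the 2 Pde5a probes in the 8 groups (x axis), with points for single pups (blue 21% O2, red 85% O2, open for antimiR-34a) and black bars for the mean and SD. In each panel the red points of an age lie below the blue ones of the same antimiR, and for Gucy1a3, Gucy1b3 and the dimmer Pde5a probe the difference in scrambled pups is larger at P14.

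In whole lung, fewer cells of a type and less RNA per cell cannot be told apart. The 10 markers of smooth muscle and pericytes were all above background on every array, and the brightest of them weigh most in their summed level. Their summed level in scrambled pups ranged from 7.73 to 8.09 in 21% O2 and from 7.52 to 7.69 in 85% O2 at P5, with 6 of 10 markers lower and 1 higher (70% called, against 43.9% of all probes). At P14 it ranged from 7.58 to 7.67 in 21% O2 and from 8.08 to 8.30 in 85% O2, with 1 of 10 lower and 4 higher (50%, against 60.9%). The part of these cells in the values of Gucy1a3, Gucy1b3 and Pde5a was not tested. Across the 32 arrays, the genes with the levels most alike included Havcr1 and Lifr for Gucy1a3 (r = 0.98 each, and 0.68 and 0.45 within groups), Reck, Myzap and Mcf2l for Gucy1b3 (0.98 each, and 0.61, 0.49 and 0.46) and Car7, Spon2 and Asic2 for Pde5a (0.95, 0.95 and 0.94, and 0.75, 0.70 and 0.66), out of 19253 genes.

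Of the nitric oxide synthases, Nos1 was not tested. In limma with all groups, arrays and spots, neither Nos2 nor Nos3 was called on its brighter or single probe in any comparison. Some alternatives called them. The change of Nos3 with age in scrambled pups in 21% O2 was -0.16, called by the methods' t-test (adjusted p = 0.0392), and others are given below. The endothelial synthase Nos3 (brighter probe at chr5:23890038-23890097 of mm9, plus strand) had levels of 3.08, 3.00, 3.04 and 3.01 in scrambled pups in 21% O2 at P5, and of 3.19, 3.00, 2.95 and 3.01 in 85% O2. These overlapped fully, and the change was 0.01 (SE 0.08, adjusted p = 0.956). At P14 the levels were 2.89, 2.94, 2.88 and 2.77 in 21% O2 and 3.29, 3.13, 3.45 and 2.80 in 85% O2, where 3 of 4 pups lay above all pups in 21% O2. The change of 0.30 (SE 0.20, adjusted p = 0.210) did not pass the test, and the spread in 85% O2 was wider (SD 0.28, against 0.07). On the other probe (chr5:23889636-23889695, 10 spots) the changes were 0.01 (SE 0.08, adjusted p = 0.962) at P5 and 0.39 (SE 0.20, adjusted p = 0.109) at P14.

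In antimiR-34a pups at P14, Nos3 changed by 0.46 (SE 0.20, adjusted p = 0.0566) on the brighter probe and by 0.54 (SE 0.20, adjusted p = 0.0290) on the other. Only the second value passed, and antimiR-34a pup 2 in 85% O2, at 3.96 against 2.82, 2.95 and 3.26 in the other 3, lay highest of all 32 pups on the brighter probe. Without that pup the changes were 0.22 (adjusted p = 0.183) and 0.31 (adjusted p = 0.0825), and neither was called. The brighter probe was called without antimiR-34a pup 1 (0.61, adjusted p = 0.0178) or 3 in 85% O2 (0.56, adjusted p = 0.0353), and so was the mean of both probes (0.50, adjusted p = 0.0397). At P5 the changes were -0.15 (SE 0.08, adjusted p = 0.113) and -0.18 (SE 0.08, adjusted p = 0.0733). The brighter probe was called there (-0.21, adjusted p = 0.0341) without antimiR-34a pup 2 in 85% O2. The 10 endothelial markers, all above background on every array, had summed levels of 7.03 to 7.26 in 21% O2 and 7.37 to 7.51 in 85% O2 at P5 in scrambled pups, and of 7.48 to 7.58 and 7.75 to 8.01 at P14. Their part in the Nos3 values was not tested. The genes most like Nos3 were Pmvk, Cdc42ep4 and Procr (r = 0.83, 0.81 and 0.81, and 0.81, 0.77 and 0.83 within groups).

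The inducible synthase Nos2 (chr11:78773567-78773626, plus strand, 2 spots) was measured at between 0.19 and 1.38 on 31 of the arrays and at -3.18 on the array of scrambled pup 1 in 85% O2 at P14. On that array its 2 spots differed by 8.51 log2 units, whereas on no other array did they differ by more than 0.19. The dark spot lay in row 271 and column 5 of the array, inside an area (rows 240 to 300, the first 12 columns) that held 77 of the 85 spots which were at least 4 log2 units below the other 3 arrays of the group. Without the dark spot the level was 1.07.

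The result for Nos2 in scrambled pups at P14 therefore depends on 1 spot. With it, the oxygen effect in scrambled pups was -0.77 (SE 0.69, adjusted p = 0.349) at P14. Without it, a setting chosen after the data were seen, the effect was 0.30 (SE 0.11, adjusted p = 0.0254), and the authors' own processed values gave 0.25 (SE 0.10, adjusted p = 0.0546). In antimiR-34a pups, whose groups at P14 did not overlap (0.63 to 0.77 in 21% O2 and 0.90 to 1.38 in 85% O2), the change was 0.41. The dark spot is not on their arrays and enters only through the shared spread, with an adjusted p of 0.612 with it and 0.00353 without it. With all spots kept, the change was called with only the compared groups (adjusted p = 0.0129) and by the methods' t-test (0.0465). The authors' values gave 0.35 (adjusted p = 0.00910). At P5 neither oligonucleotide showed a difference between oxygen levels (-0.04, SE 0.08, adjusted p = 0.698 in scrambled pups). The rise of Nos2 with age in 85% O2 was 0.55 (SE 0.09, adjusted p = 3.33e-05) without the spot, against -0.51 (SE 0.51, adjusted p = 0.443) with it. In 21% O2 it was 0.21 (adjusted p = 0.0584 without the spot, 0.748 with it) and 0.23 (adjusted p = 0.0381) in the authors' values.

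The genes most like Nos2 also differed with and without the dark spot. With the dark spot, Ndrg3, Mrc2 and Mterf1a were most alike (r = 0.98, 0.97 and 0.96, and 0.99, 0.98 and 0.97 within groups), and each of them was also low on that array. Mrc2, for example, stood at -3.19 there and at 2.22 to 2.35 on the other 3 arrays of the group. Over the 31 other arrays their r with Nos2 was 0.83, 0.85 and 0.61. Without the dark spot the 3 genes most like Nos2 were Vstm4, H2-DMb1 and 2210016L21Rik (r = 0.89, 0.88 and 0.88).

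The neuronal synthase Nos1 (chr5:118402831-118402890, plus strand) was well above background on 1 array, that of antimiR-34a pup 4 in 21% O2 at P5, at -4.77. On the other 31 arrays its values lay between -8.47 and -5.79 and carry no order. No change was computed for it.

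Edn1, the precursor of endothelin-1, was the only member called in a comparison of antimiR-34a with scrambled antimiR. In 85% O2 at P5, where antimiR-34a pup 3 is the library with liver genes, Edn1 (chr13:42403101-42403160, plus strand, 10 spots) had levels of 0.26, -0.19, 0.17 and 0.51 in scrambled pups and of 1.05, 1.44, 0.81 and 0.98 in antimiR-34a pups. The groups did not overlap, and the change was 0.88 (SE 0.14, adjusted p = 0.0454), a level 1.84-fold higher, where 0.0639% of all probes were called. The size of the change was stable and the call was not. Leaving out single pups of the 2 groups gave changes between 0.75 and 0.98 and kept the call in 1 of 8 cases, with adjusted p between 0.0163 and 0.120. Without antimiR-34a pup 3 the change was 0.96 (adjusted p = 0.0562). With only the 8 arrays of the slide that held both groups the adjusted p was 0.475 (SE 0.18), with the replicate block it was 0.105, without the scrambled pup 4 in 21% O2 it was 0.0709, and by the methods' t-test it was 0.647.

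In 21% O2 at P5 the difference had the opposite sign, -0.26 (SE 0.14, adjusted p = 0.346), with levels of -0.15, -0.11, -0.13 and -0.10 in scrambled pups and of -0.58, -0.40, -0.39 and -0.18 in antimiR-34a pups. The effect of antimiR-34a in 85% O2 minus that in 21% O2 was 1.14 (SE 0.20, adjusted p = 0.0600), in a comparison that called 0.0556% of probes. It missed the threshold here and passed it with normexp background correction (adjusted p = 0.0424), with array weights (0.0217) and with probes above background on every array (0.0479). Without antimiR-34a pup 3 in 85% O2 it was 1.23 (adjusted p = 0.0457).

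Compared by oxygen level, Edn1 was 1.45 (SE 0.14, adjusted p = 2.54e-06) higher in 85% O2 in antimiR-34a pups at P5, a level 2.74-fold higher with no overlap, and 1.54 (adjusted p = 3.50e-06) higher without antimiR-34a pup 3 in 85% O2. In scrambled pups the change was 0.31 (SE 0.14, adjusted p = 0.0909), and pup 2 in 85% O2 lay below all pups in 21% O2. Leaving out single pups gave 0.21 to 0.44, and without pup 2 in 85% O2 the change of 0.44 was called (adjusted p = 0.0200). The 2 comparisons share no arrays, and the test of their difference is the one given above. At P14 the levels were 0.61, 0.40, 0.53 and 0.22 in scrambled pups in 21% O2 and 0.71, 0.51, 0.73 and 0.56 in 85% O2, and the change of 0.19 (SE 0.16, adjusted p = 0.328) did not pass. In antimiR-34a pups at P14 it was 0.30 (SE 0.16, adjusted p = 0.113), and 0.48 (adjusted p = 0.00440) without pup 4 in 85% O2, the library with adipocyte genes.

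With age, Edn1 rose in scrambled pups by 0.56 (SE 0.16, adjusted p = 0.00391) in 21% O2 and by 0.44 (SE 0.16, adjusted p = 0.0260) in 85% O2. The groups in 21% O2 did not overlap, and the change there was 0.57 (adjusted p = 0.00802) without scrambled pup 4 of P5. Those in 85% O2 met at 0.51. The call in 85% O2 was lost without scrambled pup 2 (adjusted p = 0.129) or 3 (0.0508) of P5 or pup 1 (0.0569) or 3 (0.0662) of P14. The highest level of Edn1 was that of antimiR-34a pups in 85% O2 at P5 (1.07 ± 0.27), and the lowest that of antimiR-34a pups in 21% O2 at the same age (-0.39 ± 0.16). The genes most like Edn1 were Apeh, Uqcc3 and Galnt6 (r = 0.83, 0.80 and 0.79, but 0.44, 0.28 and 0.09 within groups).

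Ednra, the type A receptor, moved within a narrow range, from 3.77 to 4.41 over all 32 pups. In scrambled pups at P14 its levels (chr8:80186985-80187044, minus strand) were 4.04, 4.02, 4.03 and 3.88 in 21% O2 and 4.32, 4.41, 4.26 and 4.23 in 85% O2. The groups did not overlap, and the change was 0.31 (SE 0.06, adjusted p = 0.000597), a level 1.24-fold higher. It shrank to 0.11 (SE 0.06, adjusted p = 0.144) with quantile normalization and to 0.12 (SE 0.06, adjusted p = 0.125) in the authors' processed values, so the call depends on the scaling. In antimiR-34a pups at P14 the change was 0.36 (SE 0.06, adjusted p = 0.000149), and it shrank to 0.16 (SE 0.06, adjusted p = 0.0332) and 0.18 (SE 0.06, adjusted p = 0.0221) in the same 2 settings but kept the call.

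At P5, Ednra changed with oxygen by 0.04 (SE 0.06, adjusted p = 0.619) in scrambled pups and fell by 0.17 (SE 0.06, adjusted p = 0.0333) in antimiR-34a pups, where the groups overlapped. The latter call remained in 2 of 8 cases when single pups were left out, and was lost (-0.16, adjusted p = 0.0646) without antimiR-34a pup 3 in 85% O2. The oxygen effect was larger at P14 than at P5 by 0.27 (SE 0.08, adjusted p = 0.00893), or by 0.13 (SE 0.09, adjusted p = 0.249) after quantile normalization and 0.28 (adjusted p = 0.00930) without scrambled pup 4 in 21% O2 at P5. The genes most like Ednra were Il20rb, Atp5g2 and Qars (r = 0.86, 0.84 and 0.84, but 0.17, -0.01 and 0.54 within groups).

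**Figure D3:**
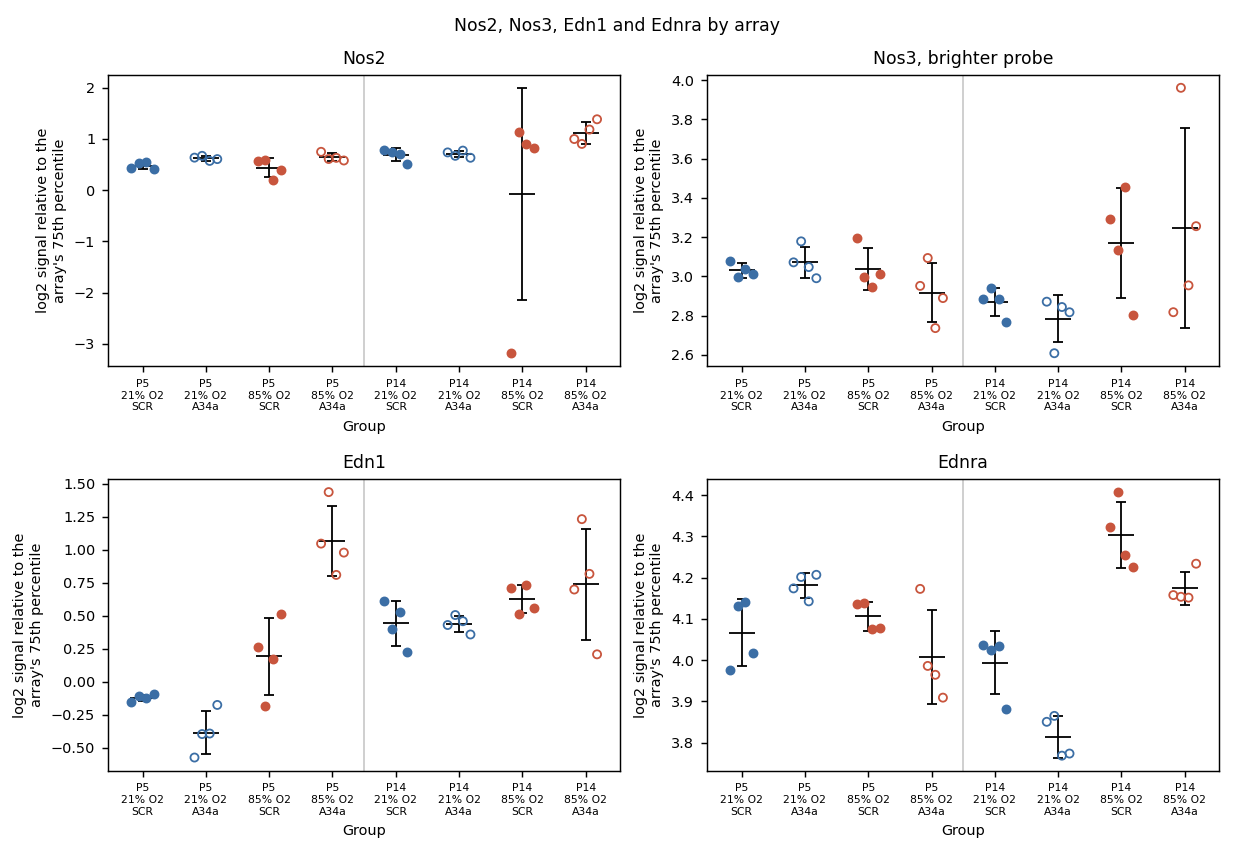
The log2 level of each array (y axis, scaled by the 75th percentile, with a range of its own in each panel) is plotted for Nos2, Nos3, Edn1 and Ednra in the 8 groups (x axis), with points for single pups (blue 21% O2, red 85% O2, open for antimiR-34a) and black bars for the mean and SD. The single Nos2 point at -3.18 is the array with the dark spot, and the open red Edn1 points at P5 lie between 0.81 and 1.44, above the filled ones.

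Apart from Edn1, no member was called for antimiR-34a. In 21% O2 at P5 limma called 0 of 7 members (0.136% of all probes), with 1 member below an unadjusted p of 0.05 (17.6% of all probes). The largest change in size there was the -0.26 of Edn1 given above. In 85% O2 at P5 limma called 1 of 7 (0.0639% of all probes), with 2 below an unadjusted p of 0.05 (13.1% of all probes). At P14 it called 0 of 7 in 21% O2 (0% of all probes), with 1 member below an unadjusted p of 0.05 (10.5% of all probes). In 85% O2 at that age it called 0 of 7 (2.67% of all probes), with 1 below an unadjusted p of 0.05 (16.5% of all probes). That 1 was Pde5a, at -0.26 (SE 0.11, adjusted p = 0.256). The difference of these effects at P14 was called for 0 of 7 (0.0884% of all probes), with 0 below an unadjusted p of 0.05 (15% of all probes). For Gucy1a3 the change with antimiR-34a in 85% O2 was -0.03 (95% interval -0.15 to 0.10) at P5 and -0.09 (-0.29 to 0.12) at P14, and for Gucy1b3 it was -0.14 (-0.30 to 0.01) and 0.14 (-0.04 to 0.31). Ednra in 21% O2 at P14, where the groups did not overlap, changed by -0.18 (SE 0.06, adjusted p = 0.474). It was called with array weights (adjusted p = 0.00312), a setting that called 9896 of the 38458 probes in this comparison, against 0 without weights. It was also called without scrambled pup 4 and antimiR-34a pup 1 in 21% O2 (0.0371).

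Other genes of these pathways, from 4 lists, were described by counts for the oxygen comparisons in scrambled pups. Each gene was read on its brightest probe, whereas the shares of all probes include dimmer probes, so the 2 kinds of share are not strictly alike. Of the 18 genes of nitric oxide synthesis and its substrate, 7 rose and 6 fell at P5 (72.2%, against 43.9% of all probes), and 11 rose and 5 fell at P14 (88.9%, against 60.9%). Their median change was 0.13 and 0.36, against -0.07 over all probes at each age. Without scrambled pup 4 in 21% O2, 7 rose and 5 fell at P5 (66.7%, against 40.3% of all probes). Ass1, which rebuilds arginine from citrulline, rose by 1.76 (SE 0.11, adjusted p = 3.37e-08) at P5 and by 2.05 (SE 0.11, adjusted p = 6.05e-09) at P14. Ddah1, which degrades the synthase inhibitor dimethylarginine, rose by 0.78 (SE 0.11, adjusted p = 7.26e-05) and 0.92 (SE 0.11, adjusted p = 6.39e-06). Prmt1, an enzyme that methylates the arginine from which that inhibitor is released, fell by 1.19 (SE 0.30, adjusted p = 0.00538) at P5. Gch1, the first enzyme of tetrahydrobiopterin synthesis, rose by 0.68 (SE 0.11, adjusted p = 0.000302) at P5, and Gchfr, the regulator that Gch1 binds, fell by 1.73 (SE 0.16, adjusted p = 9.22e-07) at P14. Nostrin, which moves Nos3 away from the plasma membrane, fell by 1.01 (SE 0.11, adjusted p = 5.34e-06) at P14. The single spots of Prmt1 and of Ece1, an enzyme that cleaves the endothelin precursor, lay in the dark area of the array described for Nos2, and their changes at P14 were -0.73 (SE 1.31, adjusted p = 0.645) and -1.64 (SE 1.32, adjusted p = 0.295).

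Of the 20 genes of cGMP signalling beyond the members, 4 rose and 4 fell at P5 (40% of 20), and 6 rose and 6 fell at P14 (60% of 20), with medians of 0.07 and -0.18. These shares are near the 43.9% and 60.9% of all probes. Without scrambled pup 4 in 21% O2, 3 rose and 3 fell at P5 (30%, against 40.3%), and the P5 calls of Nppb (adjusted p = 0.0606) and Kcnma1 (0.0616) named here were lost. Nppb, the precursor of a natriuretic peptide of the heart, rose by 1.14 (SE 0.38, adjusted p = 0.0271) at P5 and by 2.56 (SE 0.39, adjusted p = 7.43e-05) at P14, where 3 of 4 pups in 21% O2 were above background. Pde2a, another phosphodiesterase that cGMP activates, fell by 0.79 (SE 0.08, adjusted p = 4.08e-06) at P5. Kcnma1 and Kcnmb1, the subunits of a potassium channel of smooth muscle, fell by 0.55 (SE 0.17, adjusted p = 0.0189) and 0.74 (SE 0.18, adjusted p = 0.00425) at P5. At P14 Prkg2, a cGMP-dependent kinase, fell by 1.48 (SE 0.25, adjusted p = 0.000189) and Npr1, a natriuretic peptide receptor that is itself a guanylate cyclase, by 0.93 (SE 0.07, adjusted p = 2.38e-07). Mrvi1, a substrate of cGMP-dependent kinase, rose by 0.94 (SE 0.14, adjusted p = 5.32e-05).

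Genes of arginine and polyamine metabolism mostly rose at P14. Of 17 tested genes of this list, out of 20 listed, 7 rose and 2 fell at P5 (52.9%, against 43.9% of all probes), and 13 rose and 2 fell at P14 (88.2%, against 60.9%), with medians of 0.15 and 0.49, against -0.07 over all probes. Without scrambled pup 4 in 21% O2, 8 rose and 2 fell at P5 (58.8%, against 40.3%). Odc1, which turns ornithine into the polyamine putrescine, rose by 0.61 (SE 0.12, adjusted p = 0.00104) at P5 and by 2.04 (SE 0.13, adjusted p = 3.49e-08) at P14. Sat1, which acetylates polyamines for breakdown, rose by 0.57 (SE 0.09, adjusted p = 0.000230) and 1.29 (SE 0.13, adjusted p = 2.79e-06). Srm, the spermidine synthase, and Azin2, an antizyme inhibitor, rose by 0.54 (SE 0.13, adjusted p = 0.00324) and 0.51 (SE 0.09, adjusted p = 0.000703) at P5. At P14 Paox, a polyamine oxidase, rose by 1.06 (SE 0.08, adjusted p = 1.67e-07) and Agmat by 0.89 (SE 0.30, adjusted p = 0.0209).

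Of 10 tested genes of the endothelin system, out of 11 listed, 3 rose and 3 fell at P5 (60%, against 43.9% of all probes), and 3 rose and 5 fell at P14 (80%, against 60.9%), with medians of -0.04 and -0.79, against -0.07 over all probes. At P14 the 8 calls became 5 with probes above background on every array and 6 with quantile normalization. Without scrambled pup 4 in 21% O2, 3 rose and 2 fell at P5 (50%, against 40.3%), and Ecel1 was no longer called (adjusted p = 0.115). The leading genes are not all specific to endothelin. Mcpt4 and Cma1, chymases of mast cells that can cleave the endothelin precursor, rose at P14 by 3.19 (SE 0.24, adjusted p = 1.59e-07) and 2.92 (SE 0.29, adjusted p = 1.85e-06), and Cma1 rose by 1.19 (SE 0.35, adjusted p = 0.0139) at P5. Ednrb, the type B receptor, fell by 1.19 (SE 0.12, adjusted p = 1.85e-06) at P14. Edn2, encoding endothelin-2, was not well above background in any scrambled pup in 21% O2 at P14 and was at least 2.13-fold higher in 85% O2 (adjusted p = 0.0170), a bound computed against the faintest probe well above background on each array. At P5 Mmel1, a metallopeptidase, fell by 1.29 (SE 0.15, adjusted p = 1.62e-05), Kel, a red cell surface metallopeptidase, by 1.32 (SE 0.30, adjusted p = 0.00300), and Ecel1, a neuronal one, by 1.55 (SE 0.59, adjusted p = 0.0448) with overlapping groups, 2 of 4 pups in 85% O2 being above background. The summed level of 8 red cell markers ranged from 8.34 to 8.86 in 21% O2 and from 7.64 to 8.49 in 85% O2 in these pups, and its part in the Kel value was not tested.

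**Figure D4:**
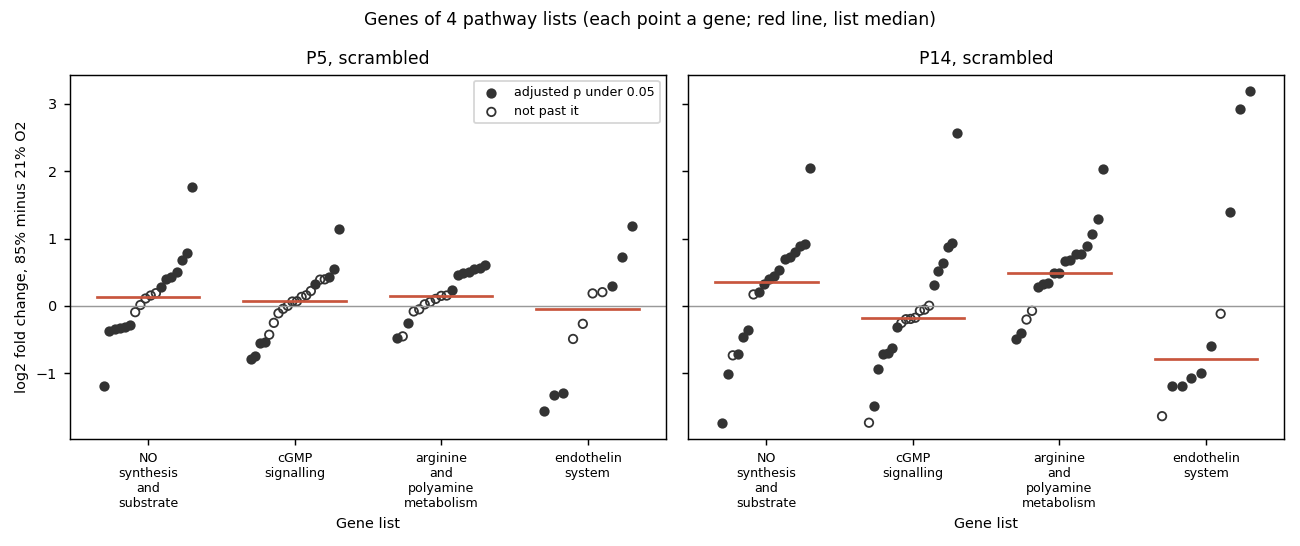
The difference in log2 level between 85% and 21% O2 in scrambled pups (y axis) is plotted for each tested gene of the 4 lists (x axis) at P5 (left) and P14 (right), filled where the adjusted p was under 0.05, with the list median in red. Most points of arginine and polyamine metabolism lie above 0 at P14 (median 0.49), and at that age the endothelin list is the most spread, up to the 3.19 of Mcpt4.

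For antimiR-34a, at most 2 of the 65 tested genes of the 4 lists were called in a comparison. At P5 limma called 0 in 21% O2, in 85% O2 and for the difference between them (0.136%, 0.0639% and 0.0556% of all probes), with 10, 10 and 8 genes below an unadjusted p of 0.05 (15.4%, 15.4% and 12.3%, against 17.6%, 13.1% and 10.8% of all probes). At P14 it called 0 in 21% O2 (0% of all probes), 2 in 85% O2 (3.08%, against 2.67%) and 1 for the difference (1.54%, against 0.0884%), with 8, 14 and 7 below an unadjusted p of 0.05 (12.3%, 21.5% and 10.8%, against 10.5%, 16.5% and 15% of all probes). The called genes, named after their values were seen, were Nos1ap, an adaptor protein of Nos1, at -0.37 (SE 0.09, adjusted p = 0.0385) in 85% O2, and Pde9a, a phosphodiesterase of cGMP, at 0.54 (SE 0.07, adjusted p = 0.00330) in 85% O2 and 0.66 (SE 0.11, adjusted p = 0.0418) for the difference. These calls were lost in some settings, since 0 of all probes were called by the methods' t-test in 85% O2 and 0 with normexp for the difference. Between P5 and P14 in scrambled pups in 85% O2, 16 of the 20 cGMP genes were called, 8 in each direction (80%, against 42.1% of all probes), and of 17 arginine and polyamine genes 9 rose and 2 fell (64.7%, median 0.20). In 21% O2, 5 cGMP genes rose and 6 fell (55%, against 51.4% of all probes), and 4 arginine and polyamine genes rose and 7 fell (64.7%, median -0.12). Of the nitric oxide synthesis list, 33.3% were called in 85% O2 and 38.9% in 21% O2. For the endothelin list these shares were 36.4% and 54.5%.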

How the data were processed

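Per the labels and file headers, the authors labelled RNA with Cy3, hybridised it to Agilent 8 × 60K mouse arrays and deposited the scanner's intensity of every spot (Agilent Feature Extraction 10.7.3.1), with background subtracted and no scaling between arrays. Probe positions are those of the mm9 annotation in the files. The authors' series table holds log2 values, 1 per probe, with column medians between 6.00 and 6.01; its normalization was not given in the sources used here, and its direction and scale follow the processed signal (r between 0.997 and 1.00 per array).

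Control spots and the 0.211% of spots with an outlier mark were left out, the processed signal was put on a log2 scale relative to the 75th percentile of the 59305 probe spots of the array, and spots of a probe were averaged. Tests covered probes that 1 or more groups of the fit had above background in all 4 pups, and were run with limma 3.58.1 in R 4.3.3, with 1 mean per group and Benjamini-Hochberg adjustment: 35984 probes at P5, 38458 at P14 and 39163 over both ages. In simulated data for oxygen at P5, 200 of 35984 probes were changed. Of these, 38% of those raised by 0.5 log2 units, 82% raised by 1 and 60% lowered by 1 were recovered. There were 3 false calls among the unchanged probes. In the real comparison 43.9% of probes were called, so the adjusted threshold acts differently there. The simulated rates therefore do not give the recovery of the oxygen test. Arrays have no read depth, and their number limits the precision.

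Alternatives were normexp background correction (offset 50), quantile normalization, no filter or a stricter filter on dim probes, only the compared groups, the methods' t-test, a replicate block, array weights, the authors' log2 values, the mean of a gene's probes, and each array left out. A spot over 4 log2 units below its probe's brightest spot was left out in a setting added after the data were seen, and so were the values of list genes and of the members' other probes without a library that stood apart. The text names 8 of the 10 members, 2 are not reported here and enter no count of members; it also names 4 genes per list and oxygen comparison by size of change, and up to 3 most alike genes per member. The members and lists were chosen with earlier results of these data known. Sequences come from RefSeq (GRCm38.p6), whose promoter table held 6 of these 8 members.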

Additional observations from a re-analysis of the deposited data

Results flagged for a closer look

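Among 72 sets of 4 pups (9 probes in 8 groups), 6 held a value far from the other 3 by Dixon's ratio, the gap to the nearest value over the whole range, where chance alone gives about 1 in 20. The ratio was 0.929 for Nos2 in 85% O2 with scrambled antimiR at P14 (pup 1, the array with the dark spot, at -3.18 against 0.83 for the nearest). The other 5 gaps were small in size. The ratio was 0.899 for the dimmer Nos3 probe in 21% O2 with scrambled antimiR at P5 (pup 3, at 1.03 against 0.86), 0.867 for the dimmer Pde5a probe in 21% O2 with antimiR-34a at P5 (pup 3, at -0.89 against -0.61), and 0.835 for Gucy1b3 in 21% O2 with antimiR-34a at P14 (pup 4, at 3.87 against 3.93). For Ednra it was 0.915 in 21% O2 with scrambled antimiR at P14 (pup 4, at 3.88 against 4.02) and 0.925 in 85% O2 with antimiR-34a at P14 (pup 4, at 4.23 against 4.16).

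The oxygen effect in scrambled pups differed between P14 and P5 by the test of the difference for 3 members, by -0.85 for Gucy1a3, -1.13 for Gucy1b3 and 0.27 for Ednra, and by -1.07 for the dimmer Pde5a probe. Each age and oxygen level was on a slide of its own, so these differences cannot be told apart from differences between slides.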

How the results depend on the processing

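Of 27 member changes called, 20 kept the call under every alternative run and 23 whichever single array was left out. For antimiR-34a in 85% O2 at P5, 0 members were called in place of 1 with only the compared groups, by the methods' t-test, with the replicate block and without scrambled pup 4 in 21% O2, and 0 to 1 when single arrays were left out. For the difference of antimiR effects at P5, 1 in place of 0 was called with normexp, with array weights and with probes above background on every array, and 0 to 1 without single arrays. In 21% O2 at P14, 1 in place of 0 was called with array weights, where 9896 of all probes were called. The same count was reached without the 2 libraries of unlike brightness (scrambled pup 4 and antimiR-34a pup 1). Of the endothelin list, 5 genes in place of 8 were called at P14 among probes above background on every array.

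Nos2 changed sign and was called without its dark spot for oxygen at P14 (0.30), age in 85% O2 (0.55) and oxygen by age (0.34), and age in 85% O2 also in the authors' values (0.51) and without scrambled pup 1 in 85% O2 at P14 (range without single arrays -0.92 to 0.52). The mean of both Pde5a probes turned age in 85% O2 to -0.43 and oxygen by age to -0.52, both called. Equal replicate numbers did not pair the arrays (correlations of deviations -0.35 to 0.50); besides Edn1 in 85% O2 at P5, the replicate block moved the call of Ednra (adjusted p = 0.0528) for oxygen in antimiR-34a pups at P5. Another scaling moved the median change of all probes at P14 by up to 0.20. Slide as a block leaves antimiR effects as they are and could not be fitted for oxygen or age.

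Calls over all probes varied most for antimiR-34a. At P5 they ranged from 1 (methods' t-test) to 892 (array weights) around 49 in 21% O2, from 0 (only the compared groups, t-test) to 4318 (no filter) around 23 in 85% O2, and from 4 (replicate block) to 58 (array weights) around 20 for the difference. At P14 they ranged from 0 to 9896 (array weights) around 0 in 21% O2, from 0 (t-test) to 1184 (array weights) around 1025 in 85% O2, and from 0 (normexp) to 6825 (without the 2 libraries of unlike brightness) around 34 for the difference. The t-test called 10713 in place of 16493 for age in 85% O2.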
